A study of Mus musculus with 2 samples.

Results

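Mast cell genes were examined in whole omentum, a sheet of visceral fat that carries the lymphoid clusters called milky spots. The group held 10 genes chosen by name, Cpa3, Tpsb2, Tpsab1, Cma1, Mcpt4, Kit, Fcer1a, Ms4a2, Hdc and Gata2, of the 24346 gene symbols listed in each library. All 10 were listed, and they were chosen with earlier results of these data known. RNA-seq had been performed on omenta taken 5 days after injection of diphtheria toxin (DT), which was given to both groups. The WT group had 1 library, and the Postn-DTR group had 1 library from heterozygous mice with a DT receptor inserted in the first coding exon of Postn, so that cells using the Postn promoter are killed by the toxin. These mice were used in the study to remove Aldh1a2+ fibroblastic reticular cells, and the promoter is also used by mesenchymal cells of other tissues. Age, sex and the number of mice behind a library were not stated. With 1 library per genotype there was no spread between replicates and no test, so the values below describe these 2 libraries.

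Mast cells are tissue-resident leukocytes that store proteases, histamine and heparin in granules and release them when IgE bound to their surface meets antigen. They develop from haematopoietic progenitors under the growth factor receptor KIT, and GATA factors direct their gene program. A pair of protease patterns are known in mice, with Cma1, Mcpt4, Tpsb2 and Cpa3 in mast cells of connective tissue and serous surfaces, and Mcpt1 and Mcpt2 in those of mucosa. Kit and Gata2 are less particular to the lineage, since progenitors express both and endothelial cells express Gata2, and Hdc is also expressed by immature myeloid cells.

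Of the 10 genes, 6 were at least 2-fold higher in the Postn-DTR library, and 0 were at least 2-fold lower. They were the proteases Cpa3, Cma1, Tpsb2 and Tpsab1, the IgE receptor chain Fcer1a and the histamine-forming enzyme Hdc. A gene was counted when log2(FPKM + 1) differed by at least 1, where FPKM is the number of fragments per kilobase of transcript scaled to the size of the library, and when its mean FPKM over both libraries was at least 1. By this rule 3.88% of the 13127 genes compared were higher and 3.12% were lower. Because the 10 genes were chosen with earlier results known, these shares are given for scale only. Of the members 9 passed the minimum, and Tpsab1 passed it through the Postn-DTR library alone, where it was high. With an FPKM of at least 1 required in both libraries, a setting chosen after the values were seen, 5 of 8 members were at least 2-fold higher, against 3.3% of 12556 genes. The median change of the 9 members was 1.65 on the log2(FPKM + 1) scale, and that of all genes compared was 0.02. The FPKM of the 10 genes summed to 100.1 in WT against 356.1 in Postn-DTR, which was 3.56-fold higher. In whole tissue, more mast cells and more RNA of these genes per cell cannot be told apart. Nor can less RNA of other cells be told apart from these, since FPKM is scaled to the library. The paper reported fewer T cells, B2 B cells and total leukocytes in Postn-DTR omenta on the same day.

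**Figure D1:**
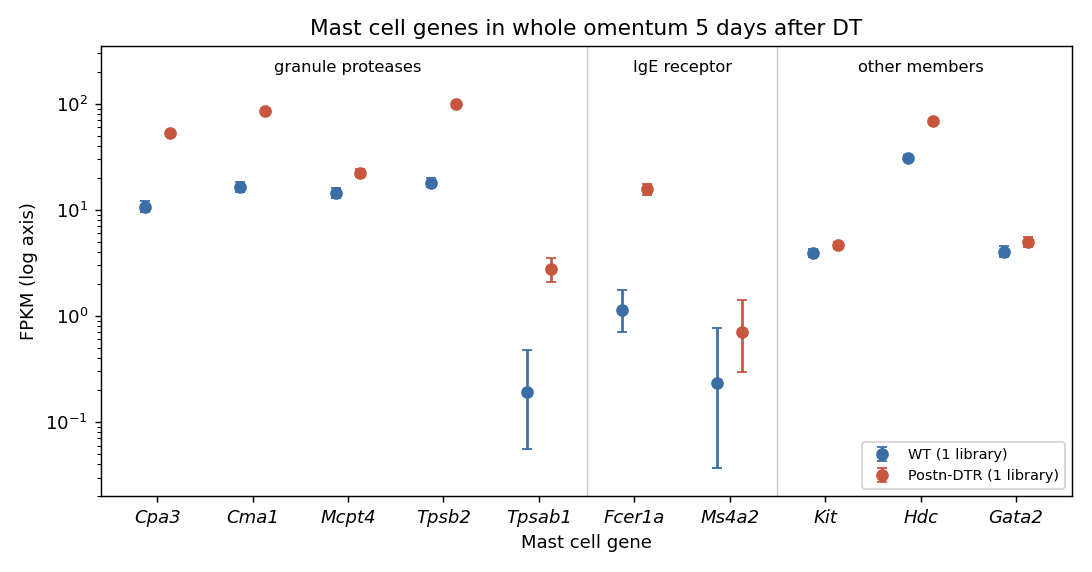
FPKM (log axis) of the 10 mast cell genes in the WT and Postn-DTR libraries, 1 library each, with 95% exact Poisson intervals on the estimated fragments, which cover counting error only. Cpa3, Cma1, Tpsb2, Tpsab1, Fcer1a and Hdc lie higher in Postn-DTR with intervals that do not overlap. The intervals of Mcpt4 do not overlap either, although it stayed within 2-fold, whereas Kit and Gata2 lie close together in the plot.

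The promoters of these genes were read first, because GATA factors are known regulators of mast cell genes. RefSeq sequence on GRCm38, the same assembly as mm10, was at hand for 8 of the 10 genes, all except Tpsb2 and Tpsab1. The 250 bases before the transcript start were searched on both strands for the GATA motif, spelled as AGATAA, or as AGATAG, or as TGATAA, or as TGATAG. A match was found in 6 of the 8 genes, namely Cpa3, Cma1, Mcpt4, Fcer1a, Ms4a2 and Hdc. Among all 32851 promoter windows of the same length, 26.5% held at least 1 match. That share is by window, and counted by window the members had a match in 6 of 10. Kit and Gata2 had none in either of their 2 windows. The promoters of 4 genes are shown 5′ to 3′ on the gene strand, with matches on either strand in capitals. Cpa3, Cma1 and Fcer1a are shown because they were among the genes furthest apart between the libraries, and Mcpt4 because it lies close to Cma1 yet stayed within 2-fold.
Cpa3: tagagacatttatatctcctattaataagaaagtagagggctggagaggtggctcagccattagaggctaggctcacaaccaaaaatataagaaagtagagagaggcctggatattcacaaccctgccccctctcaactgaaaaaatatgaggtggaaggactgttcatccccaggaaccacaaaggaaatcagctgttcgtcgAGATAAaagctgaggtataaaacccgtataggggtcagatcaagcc
Cma1: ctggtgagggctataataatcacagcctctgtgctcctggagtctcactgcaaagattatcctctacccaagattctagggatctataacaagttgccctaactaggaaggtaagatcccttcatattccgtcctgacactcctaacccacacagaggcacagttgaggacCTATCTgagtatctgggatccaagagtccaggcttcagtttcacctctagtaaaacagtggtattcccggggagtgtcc
Mcpt4: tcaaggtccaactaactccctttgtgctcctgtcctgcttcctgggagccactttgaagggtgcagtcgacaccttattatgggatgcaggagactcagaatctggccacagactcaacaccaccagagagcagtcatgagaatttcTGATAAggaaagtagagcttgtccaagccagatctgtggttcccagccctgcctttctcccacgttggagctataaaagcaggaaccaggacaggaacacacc
Fcer1a: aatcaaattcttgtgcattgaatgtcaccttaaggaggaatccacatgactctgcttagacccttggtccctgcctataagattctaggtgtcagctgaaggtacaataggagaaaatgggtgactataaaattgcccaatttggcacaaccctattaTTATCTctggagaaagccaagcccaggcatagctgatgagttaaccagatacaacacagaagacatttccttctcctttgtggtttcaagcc
These windows are chr3:20242182-20242431, chr14:55944676-55944925, chr14:56062311-56062560 and chr1:173227230-173227479, all on the minus strand of GRCm38. The match began 46 bases before the start in Cpa3, 79 in Cma1, 103 in Mcpt4 and 92 in Fcer1a. Cpa3 and Mcpt4 held it on the gene strand, and Cma1 and Fcer1a on the other. Ms4a2 held 3 matches, and 6.402% of all windows held at least 2. A match is a description of the letters, and no binding was measured in this series.

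**Figure D2:**
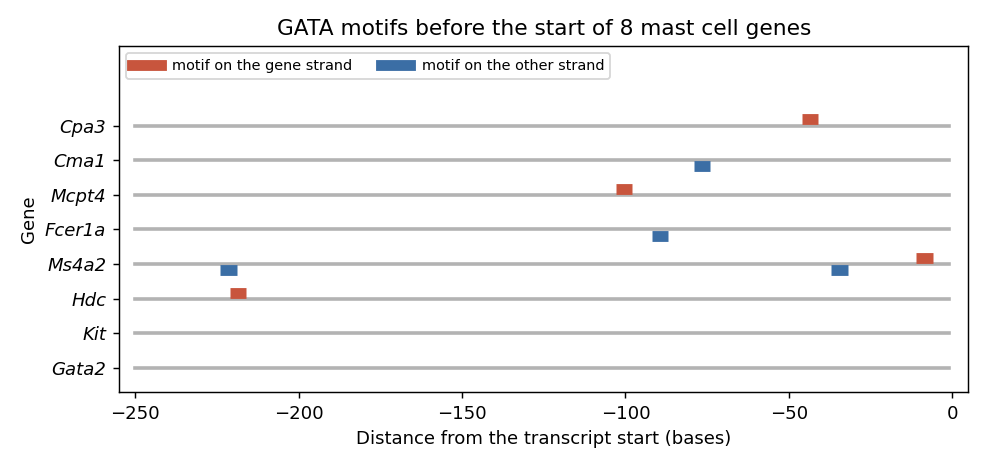
Position of GATA motifs in the 250 bases before the transcript start of 8 mast cell genes (x axis, bases from the start), with blocks above a line for the gene strand and below it for the other strand. Matches lie in Cpa3, Cma1, Mcpt4, Fcer1a, Ms4a2 and Hdc, and the lines of Kit and Gata2 are empty.

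Among the granule proteases, 3 differed by about the same factor. Cpa3 (ENSMUSG00000001865, chromosome 3, 20215620 to 20242181, minus strand, GRCm38) encodes the mast cell carboxypeptidase, which trims peptides and venoms. Its FPKM was 10.7 in WT and 52.5 in Postn-DTR, a ratio of 4.89 with a 95% counting interval of 4.33 to 5.54. Cma1 (ENSMUSG00000022225, chromosome 14, 55941451 to 55944675, minus strand) encodes a chymase, stored on the heparin of the granule. Its FPKM was 16.5 in WT and 84.8 in Postn-DTR, a ratio of 5.14 (4.57 to 5.80). Tpsb2 (ENSMUSG00000033825, chromosome 17, 25366305 to 25369098, plus strand) encodes the main mouse mast cell tryptase. Its FPKM was 18.02 in WT and 99.97 in Postn-DTR, a ratio of 5.55 (4.97 to 6.20). The counting intervals of these 3 ratios overlapped. The values rested on an estimated 310 to 381 fragments per gene in WT and 1567 to 2187 in Postn-DTR. Within each library the 3 proteases kept similar proportions, with Cma1 at 1.54 times Cpa3 in WT and 1.61 times in Postn-DTR, and Tpsb2 at 1.68 and 1.90 times Cpa3. Such proportions do not depend on how the libraries were scaled.

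Mcpt4 stood apart from the other abundant proteases. It encodes another chymase and lies in the same cluster as Cma1 (ENSMUSG00000061068, chromosome 14, 56059629 to 56062313, minus strand). Its FPKM was 14.4 in WT and 22.3 in Postn-DTR, and its change of 0.60 stayed within 2-fold. The ratio was 1.55, with a counting interval of 1.34 to 1.80 that did not overlap the interval of Cma1. In WT, Mcpt4 was at 0.871 times the FPKM of Cma1, and in Postn-DTR at 0.263 times. Mcpt4 therefore made up 14.4% of the summed FPKM of the 10 genes in WT and 6.25% in Postn-DTR, while the share of Cma1 was 16.5% and 23.8%. Transcripts of Mcpt4 and Cma1 shared 0 stretches of 50 bases, but 58 of the 1059 in Mcpt4 also occur in Cma2 and 7 in Mcpt9, so a small part of its fragments could be counted with those paralogs. Both paralogs were low, with Cma2 at 0.115 and 0.0557 and Mcpt9 listed at 0 in both libraries.

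Tpsab1 (ENSMUSG00000024173, chromosome 17, 25343245 to 25345562, minus strand) is the neighbouring tryptase gene. C57BL/6 mice, from whose zygotes the Postn-DTR line was made, are known to lack its protein, and RefSeq lists it as a transcribed pseudogene. Its FPKM was 0.193 in WT and 2.75 in Postn-DTR, or about 4.25 and 62.6 estimated fragments. The ratio of 14.3 had a wide counting interval of 5.43 to 51.4, and its change was 1.65 on the log2(FPKM + 1) scale. With a pseudocount of 5 the change was 0.58, within 2-fold. Tpsab1 thus stayed the minor tryptase transcript, at 0.0107 times Tpsb2 in WT and 0.0275 times in Postn-DTR. The transcripts of the 2 tryptases shared 0 stretches of 50 bases.

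**Figure D3:**
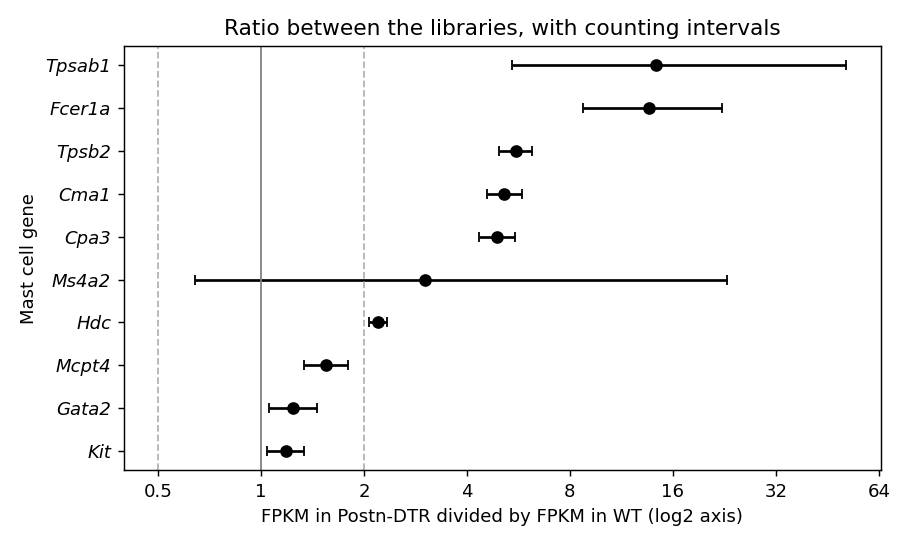
Ratio of FPKM, Postn-DTR to WT (log2 axis), for each mast cell gene, with 95% intervals that cover counting error only, and dashed lines at 2-fold. Tpsb2, Cma1 and Cpa3 sit together at 4.89 to 5.55, Tpsab1 and Fcer1a sit to the right of them, and Mcpt4, Gata2 and Kit sit to the left of the upper dashed line.

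The IgE receptor chains were unequal in level and in difference. Fcer1a (ENSMUSG00000005339, chromosome 1, 173221284 to 173227214, minus strand) encodes the chain that binds IgE. Its FPKM was 1.15 in WT and 15.6 in Postn-DTR, a ratio of 13.6 with a counting interval of 8.72 to 22.3, from about 21.04 and 295 estimated fragments. Its change of 2.95 on the log2(FPKM + 1) scale was the highest of the members, and 54 of the 13127 genes compared, itself included, changed by as much upwards. With a pseudocount of 5 its change was 1.74, below those of Tpsb2, Cma1 and Cpa3. The interval of its ratio lay above those of Cpa3, Cma1 and Tpsb2. Relative to Cpa3 in the same library, Fcer1a was at 0.107 in WT against 0.296 in Postn-DTR. Ms4a2 (ENSMUSG00000024680, chromosome 19, 11615523 to 11623719, minus strand) encodes the signal-amplifying beta chain, which mouse cells need to bring the receptor to the surface. Its FPKM was 0.235 in WT against 0.708 in Postn-DTR, under the expression minimum. The ratio was 3.01, but its counting interval of 0.640 to 23.0 spanned both directions. That interval assumed the shortest of its 4 transcripts, with about 2.40 and 7.47 fragments, and the longest would give 11.9 and 37.2. Fcer1a was at 4.87 times Ms4a2 in WT and at 21.97 times in Postn-DTR. The third chain, Fcer1g, is shared with other Fc receptors and made by most myeloid cells. Its FPKM was 245 in WT and 507 in Postn-DTR.

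Hdc (ENSMUSG00000027360, chromosome 2, 126593667 to 126619299, minus strand) encodes histidine decarboxylase, which forms histamine. It had the highest FPKM of the members in WT, at 31.0, and reached 68.0 in Postn-DTR. The ratio was 2.19 (2.07 to 2.33), lower than that of the proteases that were at least 2-fold higher, and Hdc was at 2.89 times Cpa3 in WT but at 1.29 times in Postn-DTR. Its change of 1.11 became 0.77 when the pancreatic acinar genes were removed and the libraries were set to the same total, which placed it within 2-fold. Markers of neutrophils and immature myeloid cells also differed between the libraries. Their summed FPKM was 356 in WT and 683 in Postn-DTR, with 3 of 7 at least 2-fold higher (Retnlg, Csf3r and Cxcr2, the last of which was at 0.514 and 4.03 and passed the minimum through Postn-DTR alone) and 2 at least 2-fold lower (Elane and Mpo). S100a8 was at 170 and 339, and S100a9 at 157 and 249. The part of these cells in the Hdc values was not tested.

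Kit and Gata2 were nearly level between the libraries. Kit (ENSMUSG00000005672, chromosome 5, 75574916 to 75656722, plus strand) encodes the receptor for stem cell factor. Its FPKM was 3.91 in WT and 4.61 in Postn-DTR, a ratio of 1.18 (1.04 to 1.34). Gata2 (ENSMUSG00000015053, chromosome 6, 88193891 to 88207032, plus strand) encodes a transcription factor of progenitors, mast cells and endothelium. Its FPKM was 4.02 in WT and 4.98 in Postn-DTR, a ratio of 1.24 (1.05 to 1.46). Neither gene kept a direction over the scalings, since at equal totals the change of Kit turned to -0.084 and that of Gata2 to -0.029. Relative to Cpa3 in the same library, Kit was at 0.364 in WT against 0.0879 in Postn-DTR, and Gata2 at 0.375 and 0.0949. Markers of other cells that express these genes were read beside them. The 7 blood endothelial markers summed to 309 in WT against 290 in Postn-DTR. The median of their changes was -0.13 on the log2(FPKM + 1) scale, and 0 were at least 2-fold apart. They ranged from Kdr, at 22.4 and 13.6, to Emcn, at 34.0 and 40.9. Of the 6 progenitor markers that passed the minimum, Gfi1b (0.865 and 4.19) and Hlf (1.71 and 6.82) were at least 2-fold higher, Gfi1b having passed through Postn-DTR alone, Flt3 (6.56 and 1.49) was at least 2-fold lower, and Cd34 was at 236 and 243. The pacemaker cells of gut muscle also use Kit. Of their 3 markers, Ano1 was at 39.3 and 32.8, and Etv1 at 8.92 and 6.03. Thbs4, under the minimum, went the other way at 0.200 and 0.373. The part of these cells in the Kit and Gata2 values was not tested.

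The order of the members by FPKM changed between the libraries. In WT, Hdc led at 31.0, and its counting interval lay clear of the next gene, Tpsb2. Tpsb2, Cma1 and Mcpt4 followed, at 18.02, 16.5 and 14.4, and each overlapped the next in its counting interval. Cpa3 came after them at 10.7, then Gata2 and Kit, which overlapped at 4.02 and 3.91, then Fcer1a at 1.15 and Ms4a2 and Tpsab1 at the low end. In Postn-DTR the order was Tpsb2, Cma1, Hdc, Cpa3, Mcpt4 and Fcer1a, from 99.97 down to 15.6, with intervals that did not overlap between neighbours. Gata2 and Kit came next and again overlapped. Tpsb2 thus led in Postn-DTR with 28.1% of the members' summed FPKM, against 18% in WT, and Hdc made up 19.1% against 30.9%. Kit, Gata2 and Mcpt4 held smaller shares, at 1.30%, 1.40% and 6.25% in Postn-DTR against 3.90%, 4.02% and 14.4% in WT.

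**Figure D4:**
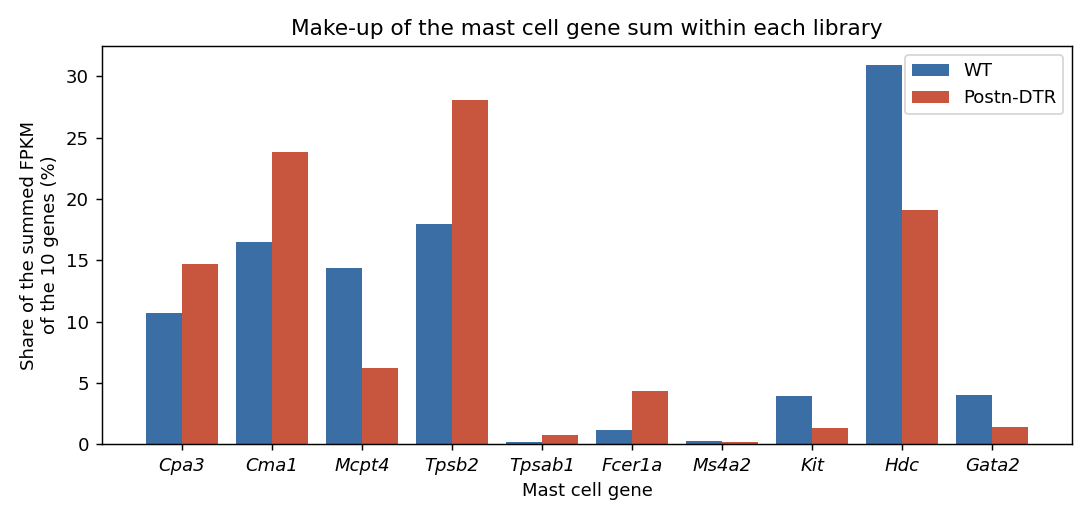
Share (%) of each mast cell gene in the summed FPKM of the 10 genes, for WT and Postn-DTR, 1 library each. The bars of Tpsb2, Cma1, Cpa3 and Fcer1a are taller in Postn-DTR, and those of Hdc, Mcpt4, Kit and Gata2 are taller in WT.

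Further genes known from mast cells were compared in lists. Of 7 other granule proteases, 2 passed the minimum and 0 were at least 2-fold apart on the log2(FPKM + 1) scale. The mucosal mast cell proteases Mcpt1 and Mcpt2 were listed at 0 in both libraries. Ctsg, which neutrophil precursors also express, was at 1.66 in WT against 0.519 in Postn-DTR, a ratio of 0.312 (0.136 to 0.655). Its change was -0.81, and it passed the minimum through WT alone. Gzmb was at 1.73 and 1.54. Tpsg1, a membrane-anchored tryptase beside Tpsb2, was at 0.127 and 0.613, under the minimum.

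Of 11 genes of the granule matrix, amines and secretion, 8 passed the minimum, 2 were at least 2-fold higher and 0 were at least 2-fold lower. Their median change was 0.57. Srgn, the proteoglycan core that holds granule proteases in mast cells and is also made by other leukocytes, was at 135 in WT against 462 in Postn-DTR. Tph1, which encodes the enzyme that starts serotonin synthesis in mast cells, was at 0.191 and 2.93. The ratio of Tph1 was 15.3, with a counting interval of 3.43 to 187, from about 1.64 and 26.0 estimated fragments for its shortest transcript. The WT estimate was under the floor of 3 fragments, so this ratio has no firm size. Like Tpsab1, Tph1 passed the minimum through the Postn-DTR library alone. Slc18a2, the vesicular amine transporter, was at 0.584 and 0.956, and Ndst2, the sulfotransferase needed for mast cell heparin, was at 16.4 and 23.5. Among the abundant members that stayed within 2-fold, the fusion protein gene Vamp8 was at 98.8 and 174, its partner Stxbp2 at 35.8 and 53.8, and the heparan sulfotransferase gene Hs6st1 at 18.1 and 22.5.

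Receptors nearly restricted to mast cells were low in both libraries. Mrgprb2, the receptor for basic secretagogues, was at 0.366 in WT against 0.952 in Postn-DTR, a ratio of 2.60 (1.43 to 4.95). Its paralog Mrgprb1 was at 0.323 and 0.927, a ratio of 2.87 (1.88 to 4.499). Both intervals lay above 1, although both genes stayed under the expression minimum. Of the 8 surface receptors in this list 5 passed it, and C5ar1 (21.1 and 54.3), Cd33 (6.60 and 20.4) and Lilrb4a (23.7 and 64.7), which macrophages and other myeloid cells also express, were at least 2-fold higher. Ptger3, a prostaglandin receptor also expressed by adipocytes, was at 53.6 and 33.9.

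The signalling genes below the IgE receptor did not share a direction. All 13 passed the minimum, and their median change was 0.06. Fcer1g was the member at least 2-fold higher, and 0 were at least 2-fold lower. Syk, the kinase that binds the receptor chains, was at 46.5 and 48.6, Lyn at 44.1 and 48.3, and the adaptor Lat, shared with T cells, at 19.5 and 10.6. The inhibitory phosphatase gene Inpp5d was at 26.8 and 35.4. Most of these genes are used by several leukocyte types.

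Growth factors for mast cells were not higher in the Postn-DTR library. Kitl, the ligand of KIT, made by fibroblasts and endothelium, was at 10.04 in WT against 6.91 in Postn-DTR, a ratio of 0.688 (0.631 to 0.750). Il33 was at 43.0 and 40.5, and its receptor Il1rl1, found on mast cells and type 2 lymphoid cells, was at 2.15 and 3.57. Tgfb1 was at 49.6 and 44.2, and Csf2rb, the receptor chain shared by IL-3 and related cytokines, at 28.1 and 35.8. Il3 and Il9 were listed at 0 in both libraries. Of 13 genes in this list 10 passed the minimum, with a median change of -0.048. Il9r, at 4.81 and 1.90, was at least 2-fold lower, and 0 were at least 2-fold higher. Il4ra, at 26.6 and 53.4, had a change of 0.98, just under the 2-fold rule.

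Of the 11 lineage transcription factors 10 passed the minimum, with a median change of 0.05. Bhlhe40, at 21.1 and 47.1, was at least 2-fold higher, and Spi1, which encodes the myeloid factor PU.1, was at 60.5 and 122 with a change just under the rule. Lmo2 (41.1 and 32.3) and Lyl1 (26.6 and 23.4), which act in early blood cells, stayed within 2-fold. Mitf, which binds promoters of many mast cell genes, was at 2.48 in WT against 4.06 in Postn-DTR. Gata1, a GATA factor of mast cells, eosinophils and erythroid cells, was at 0.126 and 0.952, a ratio of 7.54 (2.96 to 24.6) from about 4.97 and 38.8 estimated fragments, under the minimum.

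Enzymes that make prostaglandins and leukotrienes had a median change of 0.78 over 7 genes, with 3 at least 2-fold higher and 0 at least 2-fold lower. Alox5ap, which presents arachidonic acid to the 5-lipoxygenase, was at 114 and 390, Alox5 at 14.2 and 31.6, and the leukotriene C4 synthase gene Ltc4s at 188 and 397. Hpgds, the prostaglandin D2 synthase of mast cells, was at 2.99 and 4.82, the cyclooxygenase gene Ptgs1 at 37.9 and 57.2, and the thromboxane synthase gene Tbxas1 at 25.6 and 44.9. Macrophages express most of these enzymes as well. On the receiving side, 4 of 7 genes for histamine receptors and breakdown passed the minimum and 0 were at least 2-fold apart. Hrh2 was at 1.65 and 1.45, and the histamine-methylating enzyme Hnmt at 7.83 and 6.21. The organic cation transporter gene Slc22a3 was at 10.5 and 7.50, and Hrh1 at 0.851 and 1.34.

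Related granulocytes were read beside the mast cell genes. Basophils share Fcer1a, Ms4a2, Hdc and Gata2 with mast cells. Of their 4 markers, Prss34 was at 0.550 and 1.92, Cd200r3 at 0.285 and 0.287, Il4 at 0.534 and 0.206, and Mcpt8 at 0.337 in WT and listed at 0 in Postn-DTR. The sum of the 4 was 1.71 in WT and 2.42 in Postn-DTR. The part of basophils in the genes they share with mast cells was not tested. Of the eosinophil markers, Siglecf, Epx and Ccr3 were all under 0.4 in both libraries. Prg2 was at 8.30 and 9.26, and Il5ra at 3.69 and 6.29. The eosinophil list summed to 45.6 and 333, and most of that difference was Alox15 (33.1 and 317), which peritoneal macrophages also express. Of the 6 macrophage markers 3 were at least 2-fold higher, Adgre1 (41.1 and 138), Cd68 (114 and 369) and Itgam, and the list summed to 2869 and 4616. Itgam was at 46.8 and 252, a ratio of 5.38, which was the highest of the 6 and lies between those of Cma1 and Tpsb2. Csf1r, Lyz2 and Mrc1 stayed within 2-fold, with ratios of 1.38, 1.45 and 1.48. Lyz2 (2459 and 3563) made up most of the list sum in both libraries. The part of macrophages in the genes they share with mast cells was not tested.

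**Figure D5:**
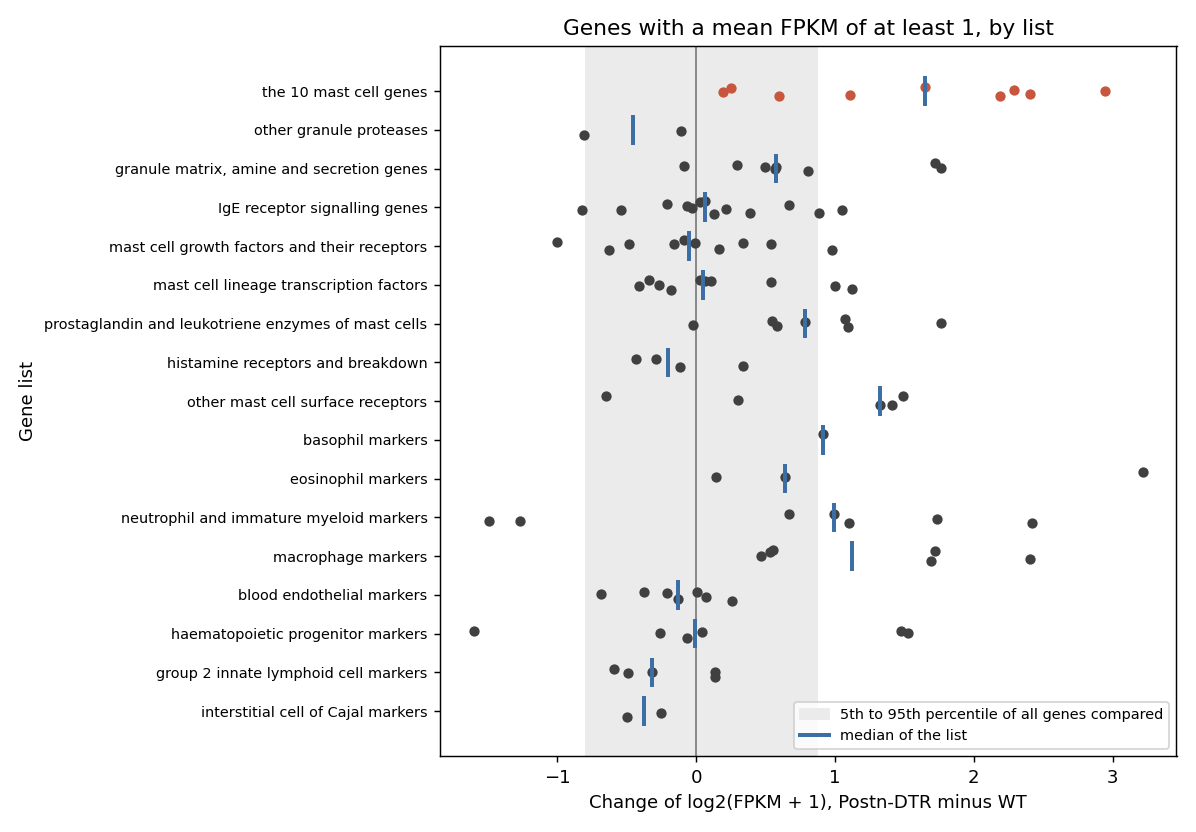
Difference in log2(FPKM + 1) from WT to Postn-DTR (x axis) for the genes of each list whose mean FPKM reached 1, with the list median as a bar and the 5th to 95th percentile of all 13127 genes compared (-0.79 to 0.87) in grey. Of the 9 mast cell gene points, 6 lie to the right of the grey band, while signalling genes, growth factors and endothelial markers spread around 0.

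The libraries differed in other ways that bear on these values. Postn, the targeted gene, was at 58.3 in WT against 16.2 in Postn-DTR, where the insertion also interrupts 1 of its copies. The FPKM summed to 542190 and 671882, and pancreatic acinar genes made up 12730 of the WT sum and 21.6 of the Postn-DTR sum. Adipocyte markers summed to 6691 and 7956, a difference carried by Fabp4 (4879 and 6519), while Adipoq was at 955 and 636 and Plin1 at 321 and 189. Mesothelial markers summed to 415 and 411, with Lrrn4 (62.7 and 29.2) at least 2-fold lower and Msln (37.2 and 67.9) and Krt19 (104 and 132) within 2-fold in the other direction. B cell markers summed to 436 and 320, with Ms4a1 (56.8 and 23.6) at least 2-fold lower. Without the acinar genes and at equal totals, the median over all genes shifted by -0.30, which left 5 of the 6 mast cell genes at least 2-fold higher, all except Hdc. That setting removed the acinar genes and set equal totals together, and the part of pancreas RNA in these values was not tested.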

How the data were processed

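RNA of whole omentum was isolated by miRNeasy and made into TruSeq stranded mRNA libraries, per the labels. The files deposited by the authors hold 1 FPKM value per gene symbol. The submitters' processing notes name TopHat2 2.1.1, Bowtie2 2.2.8, SAMtools 0.1.18, Cuffdiff 2.2.1 and mm10. The annotation and the depth were not given in the sources used here.

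The 10 genes and the 21 lists were chosen with earlier results of these data known. Groups came from the genotype labels. A change is the difference in log2(FPKM + 1) from WT to Postn-DTR, a scale that shrinks the differences of low genes. Genes whose mean FPKM reached 1 were compared and counted at 2-fold. Ratios are of the deposited FPKM. The rule for named genes took the 10 members, Postn and, from each list, the genes at least 2-fold apart and the 4 of highest mean FPKM. Lists of other cell types are given by their sums and some of these genes. Further genes were chosen after their values were seen.

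Depth was estimated from the steps of low FPKM. The ratio of the libraries was 0.967 in 174 of the 723 genes that were detected at an FPKM below 0.1 in each. From genes with 1 RefSeq transcript in GENCODE M21, the denominators were about 23276400 fragments in WT and 24070700 in Postn-DTR, with transcript lengths reduced by 209 bases, and 79.3% and 78.5% of low values came within 0.1 of a whole fragment, where 20% would by an even spread. The denominator may differ from the sequenced depth. Fragments per member were computed with the shortest RefSeq transcript, and need not be whole. Intervals (95%, exact Poisson for levels, Clopper-Pearson for ratios) cover counting error only, not mice or library preparation. The floor was 3 fragments, and a ratio that rests on a value at or under it has no firm size. With the shortest transcript, the WT values of Ms4a2 and Tph1 were under it. The calculations were tested on simulated data and run in Python 3.11.15 with pandas 2.3.3 and scipy 1.17.1. Gene positions came from GENCODE M21 (GRCm38), which held 23310 of the symbols, and promoters from RefSeq (GRCm38.p6).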

Additional observations from a re-analysis of the deposited data

How the results depend on the processing

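Results were recomputed under 10 alternatives, 1 of them added after the values were seen (an FPKM of at least 1 in both libraries). No mast cell gene was at least 2-fold lower under any of the 10. By the 2-fold rule, the number higher was 4 to 6 against 6 as reported. The 4 were among 5 members with a mean FPKM of 10 or more. A 1.5-fold rule gave 7 higher and a 3-fold rule gave 5. The median change of the members, 1.65, became 2.28 with a pseudocount of 0.1, 1.02 with a pseudocount of 5, 1.38 without the expression minimum, 2.19 for genes of mean FPKM 10 or more, and 1.5 with acinar genes removed and equal totals. The change of their summed FPKM, 1.83 on the log2 scale, became 1.49 at equal totals. Of 50 changes of single members under 5 alternatives, 2 reversed, Kit to -0.084 and Gata2 to -0.029, both at equal totals. Another 12 moved by over 0.1 to a value outside the counting interval of the FPKM ratio, which holds no pseudocount. The reported changes of Tpsab1 and Fcer1a, on the log2(FPKM + 1) scale, already lay below the intervals of their own ratios. Large moves that ended inside the interval were not among the 12. With a pseudocount of 0.1, for example, Tpsab1 went from 1.65 to 3.28 and Fcer1a from 2.95 to 3.65. With a pseudocount of 5, Tpsab1 (0.58) lost its 2-fold difference and Fcer1a (1.74) was below Tpsb2, Cma1 and Cpa3.

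Over all genes, the 410 lower genes became 643 and 168 with pseudocounts of 0.1 and 5, 173 for a mean FPKM of 10 or more, 788 when totals were equal, 1160 by a 1.5-fold rule and 153 by a 3-fold rule. From the pseudocount of 5 onwards, in that order, the 509 higher genes numbered 287, 303, 306, 1294 and 199. Higher genes made up 55.4% of those called, but 28.0% at equal totals. Stricter thresholds lower a count by construction. Ms4a2, Tpsab1 and Tph1 rested on few fragments in WT, which widens the counting intervals of their ratios. No paired analysis was possible because each genotype had 1 library.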

Other observations

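The genes around the proteases were read by position, a comparison chosen after the members' values were seen. Within 300 kb of the Cma1 to Mcpt4 interval on chromosome 14, 37 listed genes were found, of which 16 belong to the mast cell protease, cathepsin G and granzyme cluster. Of these 16, 8 were listed at 0 in both libraries, namely Mcpt1, Mcpt2, Mcpt9, Gzmd, Gzme, Gzmf, Gzmg and Gzmn. Of the 37 genes, 20 passed the minimum and 2 were at least 2-fold higher, where the share of all genes compared was 3.88%. The window was drawn around members already known to be higher, and its counts include them. The counts therefore show no enrichment of the locus. Within the cluster 4 passed the minimum, and of these Cma1 was at least 2-fold higher. The other gene within 300 kb that was, Tgm1 (2.90 in WT and 6.98 in Postn-DTR), lies outside the cluster. Mcpt4 (14.4 and 22.3) was the other cluster gene with an FPKM above 2 in WT.

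Within 300 kb of the tryptase genes on chromosome 17, 24 listed genes were found, of which 15 passed the minimum. Tpsab1 and Tpsb2 were the 2 at least 2-fold higher, where the share of all genes compared was 3.88%. Both are the members around which the window was drawn, so the count shows no enrichment of the locus. Tpsg1, which begins 175 bases after the annotated end of Tpsb2, was at 0.127 and 0.613. Prss34, a protease of basophils, was at 0.550 and 1.92, a ratio of 3.50 (1.86 to 7.05). Its change of 0.92 on the log2(FPKM + 1) scale lay just under the 2-fold rule. The remaining neighbours that passed the minimum, such as Gnptg (26.3 and 31.0) and Clcn7 (17.9 and 24.0), stayed within 2-fold.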
